A study of Homo sapiens with 12 samples.

Results

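CPED1 and AP000812.2 are 2 of the 58735 genes in the count tables of HAP1 cells with and without SETDB1. They were chosen by their measured rise in the SETDB1 knockout (counts and log2 fold change of this same contrast), so their levels are described here with no test, and tests are given only for the genes and repeats around them. CPED1 (ENSG00000106034) is a protein-coding gene on the plus strand of chromosome 7 at 7q31, chr7:120988677-121297444 of GRCh38. Its body covers 308768 bp, with 30 merged exon blocks in GENCODE 29. AP000812.2 (ENSG00000255860) is an unprocessed pseudogene on the plus strand at 11q13, chr11:72172455-72177954, which spans 5500 bp with 4 exons and 718 bases of exon. RefSeq lists the same locus as FOLR3P1, a pseudogene of the folate receptor gene FOLR3.

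HAP1 is a near-haploid human line, labelled as chronic myelogenous leukemia. Every culture was grown in IMDM with serum and antibiotics. Apart from replicate number, the labels of the 12 RNA libraries differ only in genotype (wild type, WT, or SETDB1 KO) and in library kit. A non-directional kit, blind to which strand was transcribed, and a directional kit, which records it, were each used for 3 WT and 3 KO libraries numbered as biological replicates. How the KO line was made, and whether it is 1 clone, is not given in the sources used here, and the p-values measure only the spread between these libraries.

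SETDB1 is a methyltransferase that places methyl groups on lysine 9 of histone H3, a mark of silent chromatin. It is brought to retroelements and to some genes by KRAB zinc finger proteins through TRIM28. CPED1 encodes a protein with cadherin-like and PC-esterase domains whose function is not well understood, and its gene stands beside WNT16 in a region that human genetics has tied to bone mineral density. Folate receptors are cell surface or secreted proteins that bind folate, and their genes and pseudogenes lie side by side on 11q13. An unprocessed pseudogene is a copy made by duplication of a gene, introns included, that no longer keeps a full reading frame.

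Exon sequences of AP000812.2 are shown because they decide how well its reads can be told from those of its functional relative. They come from the GENCODE 29 transcripts, on the plus strand of chromosome 11. Exon 2 of the pseudogene (chr11:72176764-72176956, 193 bases) is set against coding exon 3 of FOLR3 (chr11:72138961-72139149, 189 bases). Capitals mark bases of FOLR3 that differ from the pseudogene, 11 in all, and 4 bases of the pseudogene have no partner.
AP000812.2 exon 2: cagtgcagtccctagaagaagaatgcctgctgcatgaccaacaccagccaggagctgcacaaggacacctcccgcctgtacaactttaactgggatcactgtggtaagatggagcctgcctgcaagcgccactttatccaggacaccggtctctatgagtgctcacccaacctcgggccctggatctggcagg
FOLR3 exon 3: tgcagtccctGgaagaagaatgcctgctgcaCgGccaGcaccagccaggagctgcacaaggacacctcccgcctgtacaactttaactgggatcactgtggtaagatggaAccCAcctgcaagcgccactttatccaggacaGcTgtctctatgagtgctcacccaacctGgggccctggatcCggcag

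Exon 3 of the pseudogene (chr11:72177484-72177616, 133 bases) matched exon 4 of FOLR3 (chr11:72139347-72139482, 136 bases) with 0 mismatches, and only the first 3 bases of the FOLR3 exon had no partner. Exon 4 of FOLR1 (chr11:72195612-72195747), a coding exon of the same length, had 13 mismatches, and that of FOLR2 (chr11:72221176-72221311) had 18. Capitals again mark what differs from the pseudogene.
AP000812.2 exon 3: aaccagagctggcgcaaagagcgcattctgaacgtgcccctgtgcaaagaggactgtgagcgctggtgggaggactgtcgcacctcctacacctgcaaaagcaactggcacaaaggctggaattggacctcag
FOLR3 exon 4: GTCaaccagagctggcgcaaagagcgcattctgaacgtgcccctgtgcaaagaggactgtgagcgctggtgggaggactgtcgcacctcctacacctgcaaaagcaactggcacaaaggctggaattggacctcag
FOLR1 exon 4: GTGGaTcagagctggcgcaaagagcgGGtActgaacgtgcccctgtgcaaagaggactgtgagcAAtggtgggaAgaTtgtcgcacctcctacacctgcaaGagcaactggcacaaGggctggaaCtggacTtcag

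In local alignments of the transcripts, AP000812.2 was 95.0% identical to FOLR3 over 717 columns and 86.5% to FOLR2 over 635. It was 79.5% identical to FOLR1 over 707 columns and 77.9% to AP000812.3 over 560. AP000812.3 is the neighbouring pseudogene that RefSeq names FOLR1P1. The longest open reading frame of AP000812.2 had 82 codons, against 245 in FOLR3, 257 in FOLR1 and 272 in FOLR2. Of the 669 stretches of 50 bases in the AP000812.2 transcript, 119 (17.8%) also occurred in a transcript of another gene, FOLR3 or FOLR2, and of its 619 stretches of 100 bases, 34 (5.49%) did, in FOLR3 alone. For FOLR3 the shares were 8.67% and 2.30%. In CPED1 3.62% of stretches of 50 bases and 2.30% of those of 100 bases were shared, the latter with HMGN1P18 alone, a processed copy of HMGN1 that lies inside a CPED1 exon. The read length is not given in the sources used here, and reads that align to several places are left out of the non-directional counts. How much of the shared sequence the gene totals cover was not tested. Whether reads of one copy were counted for another was not tested either.

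The bases before CPED1 are shown because SETDB1 acts on chromatin and the start of the gene is where a reader would look first. RefSeq places 1 start of CPED1 at position 120988711 of chromosome 7 in GRCh38.p14. The 216 bases before the earliest GENCODE start, chr7:120988461-120988676 on the plus strand, read as follows, with CG dinucleotides in capitals.
CPED1 upstream: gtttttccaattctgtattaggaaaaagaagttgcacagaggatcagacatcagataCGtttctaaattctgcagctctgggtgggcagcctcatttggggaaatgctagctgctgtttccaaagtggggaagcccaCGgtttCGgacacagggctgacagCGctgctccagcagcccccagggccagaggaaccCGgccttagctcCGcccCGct
This stretch holds 7 CG, and the 250 bases before the RefSeq start hold 11, with 58% G or C. Of 35114 promoter windows of 250 bases in the RefSeq table, 50.3% held at least as many CG, and the median was 11. The motif TATAAA, searched on both strands, was in neither of the 2 CPED1 windows nor in that of FOLR3, and was in 10.7% of all windows. A second CPED1 start had 3 CG in its 250 bases, which 77.1% of windows equalled or exceeded, and the FOLR3 window had 1 (94.0%). No promoter entry of AP000812.2 was used.

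The targeted gene was checked first. In the non-directional libraries SETDB1 had 651, 543 and 519 counts in WT and 118, 106 and 118 in KO. Its mean level was 60.0 ± 4.4 counts per 1000000 gene counts (CPM) in WT and 11.5 ± 0.64 in KO (SD, n = 3), a log2 fold change of -2.39 (SE 0.079, adjusted p = 7.0e-43, edgeR quasi-likelihood test with Benjamini-Hochberg adjustment over all genes). The directional counts, 12, 17 and 7 in WT and 6, 4 and 11 in KO, overlapped (adjusted p = 0.256, edgeR). The strand of these directional counts is not known.

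Reads counted in genes, rather than reads in all, set what each kit could show. The non-directional libraries had 11096966 to 12684855 listed reads and the directional ones 10106592 to 12842195. The non-directional libraries held 8921959 to 10199215 gene counts, with 80.3 to 80.4% of reads in genes, and a count of 3 equalled 0.294 to 0.336 CPM. The directional tables held 532021 to 676691 gene counts, only 5.23 to 5.30% of their reads, and 94.55 to 94.63% of reads fell in no gene. There a count of 3 equalled 4.43 to 5.64 CPM. Which strand the directional tables count is not given in the sources used here. In a pair beside AP000812.2, chosen after its values were seen, the counts went to the opposite strand: NUMA1 had 997 to 1109 counts in the non-directional libraries and 35 to 68 in the directional ones, whereas AP002490.1, which lies antisense to it, had 0 to 2 and 708 to 943. Whether this holds across all genes was not tested, so directional counts of a gene may be of either strand, and no fold is given from them for CPED1, AP000812.2 or FOLR3. The 3 KO non-directional libraries differed from each other by no more than sampling noise (chi-square per degree of freedom 0.956 to 0.991 over the 3 pairs). In WT, replicates 1 and 3 gave 1.03, and the pairs with replicate 2 gave 1.815 and 2.00. The values of the neighbours were also computed with the KO libraries summed and counted as 1.

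The labelled cell type was not visible in its markers. All 10 leukaemia and blood markers were below 1 CPM in all 6 non-directional libraries, 6 of them (SPI1, CD33, MPO, LYZ, HBG1 and HBG2) at 0, and their sum was 0.392 to 0.560 CPM in WT and 0.204 to 0.512 in KO. Of the 3 pluripotent or germ cell markers, POU5F1 stood at 559 CPM in WT and 521 in KO, NANOG at 0.465 and 0.469 CPM, and DAZL at 8.51 and 1.18 CPM. The sum of the 4 epithelial markers went from 140.5 to 155.3 CPM in WT to 205.2 to 216.8 in KO, carried by EPCAM (3.74 and 39.7 CPM) and KRT8 (83.1 and 115.4 CPM), while KRT18 (59.1 and 55.4 CPM) and CDH1 (1.10 and 0.407 CPM) had lower means in KO. The sum of the 4 fibroblast markers went from 74.4 to 77.1 CPM in WT to 37.4 to 38.9 in KO, carried by PDGFRA (59.1 and 19.5 CPM), while COL1A1 was at 16.4 and 18.4 CPM, COL1A2 at 0.218 and 0 CPM and DCN at 0. The 2 endothelial markers summed to at most 0.112 CPM. What part these shifts had in the levels of CPED1 and AP000812.2 was not tested. In such bulk libraries, more cells with an RNA and more RNA per cell cannot be told apart.

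CPED1 went from near silence to one of the better expressed genes. Its non-directional counts were 39, 47 and 39 in the WT libraries and 3164, 3161 and 3189 in the KO libraries. All KO libraries lay far above all WT libraries, with no overlap. The mean level was 4.41 ± 0.76 CPM in WT and 320.1 ± 5.4 in KO (SD, n = 3), 72.5-fold higher, and the fold between single libraries ranged from 59.6 to 84.7. The fitted log2 fold change was 6.18 (SE 0.067). Per length of exon, the level was 0.573 ± 0.098 reads per kilobase per 1000000 gene counts (RPKM) in WT and 41.5 ± 0.70 in KO. Among the 13778 genes tested, 9.97% had a lower RPKM than CPED1 in WT and 91.6% had a lower one in KO. The KO libraries were closely alike, with a coefficient of variation of 1.67% against 17.2% in WT, where counts were low.

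AP000812.2 rose by more on the log2 scale. It had 17, 13 and 16 counts in the WT libraries and 2684, 2729 and 2809 in the KO libraries. Here too the genotypes did not overlap. Its mean level was 1.61 ± 0.13 CPM in WT and 276.5 ± 1.9 in KO (SD, n = 3), 172-fold higher, with 161 to 191 between single libraries and a fitted log2 fold change of 7.40 (SE 0.080). Because its exons are short, its level per length was the higher of the pair: 2.24 ± 0.18 RPKM in WT and 385 ± 2.7 in KO. The KO level exceeded that of 99.6% of the genes tested, and the WT level that of 30.1%. The ratio of AP000812.2 to CPED1 on the RPKM scale was 2.97 to 4.68 over the WT libraries and 9.10 to 9.45 over the KO libraries.

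**Figure D1:**
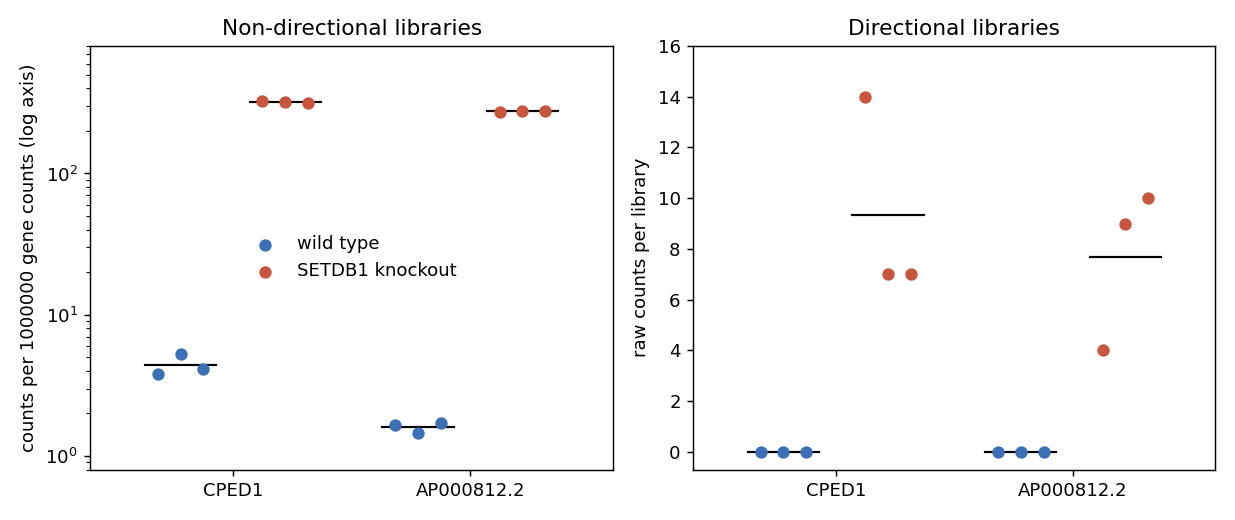
Levels of CPED1 and AP000812.2 in each library, as CPM on a log axis for the non-directional libraries and as raw counts for the directional libraries. Points are single libraries (3 per genotype and kit), black lines are means, and the KO points lie above the WT points in each kit, where directional WT counts are all 0.

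The edgeR fit called 7089 of 13778 non-directional genes (51.5%), 3517 higher (25.5%) and 3572 lower (25.9%) in KO, so sizes are given here in place of calls. Ordered by fitted log2 fold change, AP000812.2 was 12th and CPED1 30th. AP000812.2 stood between NLRP2 (7.48) and ZNF525 (7.28), and CPED1 between ZNF439 (6.31) and ZNF790-AS1 (6.12). Many genes of that order were close to 0 in WT. Among the 13415 genes with a mean of at least 1 CPM in WT, only NLRP2 (180-fold) had a larger fold of mean CPM than AP000812.2, which was followed by CPED1, and only 13 genes exceeded 10-fold. By gain in CPM, CPED1 was 6th of all genes tested (315.7 CPM) and AP000812.2 8th (274.9 CPM).

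**Figure D2:**
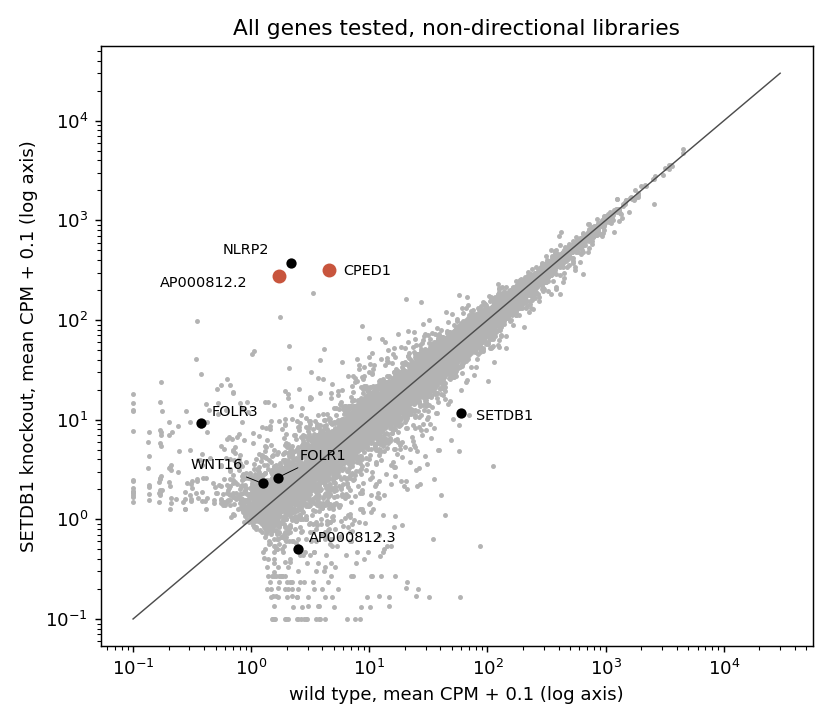
Mean CPM plus 0.1 in WT (horizontal, log axis) and in SETDB1 KO (vertical, log axis) for 13778 genes (non-directional libraries, all that were tested). The line marks equal levels, red points are CPED1 and AP000812.2, black points are other genes named in the text, and both red points lie with NLRP2 far above the line at a few CPM in WT.

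In the directional libraries neither gene passed the filter on low counts. At the CPED1 locus 0 reads were counted in each WT library and 14, 7 and 7 in the KO libraries (15.8 ± 5.7 CPM, SD, n = 3). At the AP000812.2 locus 0 were counted in each WT library and 4, 9 and 10 in the KO libraries (13.5 ± 6.3 CPM, SD, n = 3). All KO libraries thus held reads at both loci and no WT library did, but the strand of these reads is not known. A count of 0 in a WT library allows up to 3 counts, 4.99 CPM on average. In CPM, which is scaled to the gene counts of each kit, the directional KO values were 4.93% and 4.87% of the non-directional ones. In raw counts over the KO libraries, the totals were 28 against 9514 for CPED1 and 23 against 8222 for AP000812.2. For comparison, 769 of the 4745 directional genes tested were called (16.2%), 364 higher (7.67%) and 405 lower (8.54%).

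Around CPED1, the nearest tested genes changed little or moved in both directions. Of the 10 nearest, 5 on each side, 7 were called (background 51.5%), 3 higher and 4 lower, with log2 fold changes from -1.50 to 1.04 and a median of -0.02, beside -0.0012 over all genes. Their distances from the CPED1 body ran from 11.5 to 3114.5 kb.

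ING3, a subunit of histone acetyltransferase complexes, ends 11.5 kb upstream of CPED1. Its counts were 230, 186 and 211 in WT and 217, 215 and 208 in KO, and the genotypes overlapped (log2 fold change -0.04, SE 0.084, adjusted p = 0.736, edgeR). TSPAN12, a tetraspanin of the Norrin receptor complex, lies 130.3 kb upstream. It had 147, 135 and 142 counts in WT and 167, 180 and 213 in KO, and rose by 0.33 (SE 0.096, adjusted p = 0.0025, edgeR). Without KO replicate 3 its adjusted p was 0.0545. KCND2, a voltage-gated potassium channel gene 238.3 kb upstream, had 72, 61 and 70 counts in WT and 38, 49 and 46 in KO, and fell by 0.68 on the log2 scale (SE 0.16, adjusted p = 2.1e-04, edgeR). Farther out, LSM8, an RNA-binding protein of the U6 snRNP, fell by 0.22 (adjusted p = 0.0057, edgeR) and CTTNBP2, a cortactin-binding protein, fell by 0.98 (adjusted p = 3.3e-10, edgeR).

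On the downstream side, WNT16, a secreted Wnt ligand known for its role in cortical bone, starts 27.9 kb from the end of CPED1. It had 13, 8 and 12 counts in WT and 27, 19 and 19 in KO, with no overlap. Its level rose from 1.15 ± 0.22 to 2.19 ± 0.50 CPM (SD, n = 3), a log2 fold change of 0.90 (SE 0.30, adjusted p = 0.0085, edgeR), and the adjusted p was 0.091 without KO replicate 1, the highest over 12 alternative settings, and 0.0727 with the DESeq2 Wald test. The gain of WNT16 was about 1 CPM, against 315.7 CPM for CPED1. FAM3C, a secreted cytokine-like protein gene 51.4 kb downstream, had 467, 334 and 411 counts in WT and 424, 417 and 419 in KO, and the genotypes overlapped (-0.01, SE 0.064, adjusted p = 0.906, edgeR). PTPRZ1, a receptor tyrosine phosphatase gene 575.6 kb away, had 6, 7 and 10 counts in WT and 16, 16 and 18 in KO, and rose by 1.04 (SE 0.35, adjusted p = 0.0085, edgeR). Its adjusted p was 0.0653 without WT replicate 1 and 0.0764 with DESeq2. AASS, a lysine degradation enzyme gene, had an adjusted p of 0.807 (edgeR, 0.02). FEZF1, a zinc finger transcription factor gene 1004 kb away, had 24, 28 and 27 counts in WT and 10, 11 and 8 in KO, and fell by 1.50 (SE 0.29, adjusted p = 8.5e-06, edgeR).

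The 7 tested genes of the bone mineral density region (KCND2, TSPAN12, ING3, WNT16, FAM3C, PTPRZ1 and AASS) are also all the tested genes within 1000 kb of CPED1. Of these 4 were called, 3 higher and 1 lower, against a background of 51.5%, and their median log2 fold change was 0.02. Genes inside the CPED1 body were credited with almost no reads. HMGN1P18, whose whole 277 bp lie in a CPED1 exon on the same strand, was at 0 in all libraries. Any read there lies in both genes, so this 0 does not show its level. RNU6-517P and RNA5SP241, small RNA pseudogenes on the opposite strand, had at most 2 counts in a non-directional library and at most 3 in a directional one, and 0 in every WT library.

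Of 7 listed genes that share the PC-esterase domain of CPED1, 3 were tested and 0 called by edgeR (background 51.5%): CASD1, which acetylates sialic acid (-0.18, adjusted p = 0.204, edgeR), NXPE3 (0.12, adjusted p = 0.0528, edgeR) and PCED1A (0.11, adjusted p = 0.425, edgeR). The median of these 3 log2 fold changes was 0.11. At an unadjusted p under 0.05 NXPE3 alone passed (1 of 3, and 0 of 3 with DESeq2), and without WT replicate 2 its adjusted p was 0.0164. NXPE1 and NXPE4 were at 0 in all non-directional libraries, and NXPE2 and PCED1B had at most 2 counts.

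**Figure D3:**
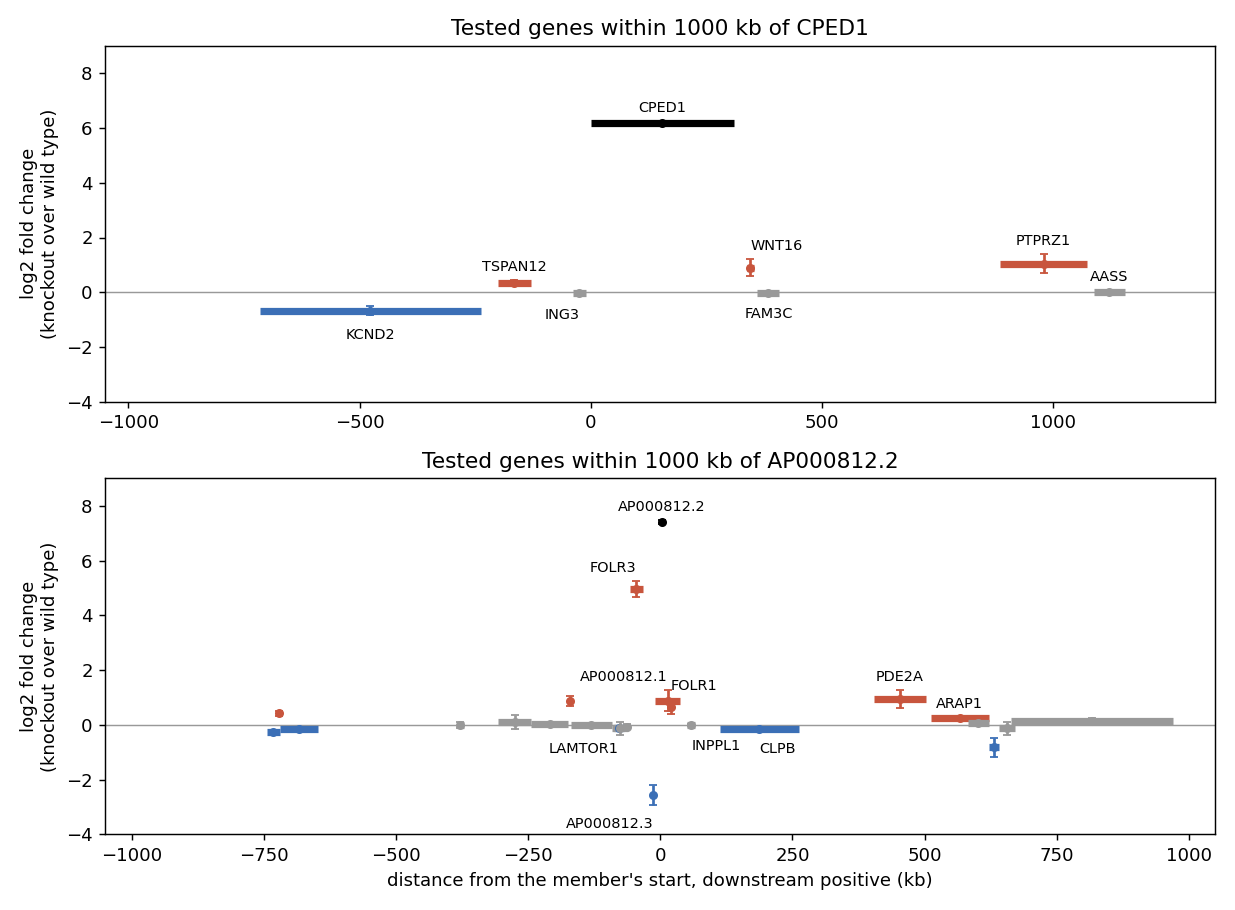
Log2 fold change (KO over WT, non-directional libraries) of tested genes against distance from the start of CPED1 (upper panel) or AP000812.2 (lower panel) in kb, with downstream positive. Horizontal bars span gene bodies, error bars are SE, black marks the gene at 0 kb, red and blue mark genes higher and lower at an adjusted p under 0.05, and grey marks the others. CPED1 (6.18) stands alone in its window, while FOLR3 (4.97) stands next to AP000812.2 (7.40).

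Around AP000812.2 the largest changes were in 2 of its relatives, FOLR3 and AP000812.3. Of the 11 neighbours tested, 8 were called (background 51.5%), 5 higher and 3 lower, with a median log2 fold change of -0.02 and a range of -2.55 to 4.97. The count was 4 with the DESeq2 Wald test, and 5 without KO replicate 2, without WT replicate 1 or in one fit over all 12 libraries. That last fit did not test AP000812.1 or PDE2A. Calls over all genes fell as well, from 7089 to 5359 with DESeq2. They were 6396 without KO replicate 2, 6394 without WT replicate 1 and 6570 in the fit over all 12 libraries.

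FOLR3, the gene for a secreted folate receptor of blood cells, lies 32.6 kb upstream of the pseudogene. Its counts were 4, 1 and 3 in WT and 85, 99 and 90 in KO, so the genotypes were far apart. The level was 0.275 ± 0.15 CPM in WT, below the floor of a library, and 9.22 ± 0.77 in KO (SD, n = 3), or 0.197 and 6.60 RPKM. The fitted log2 fold change was 4.97 (SE 0.29, adjusted p = 6.0e-27, edgeR). As a ratio of summed counts, 274 in KO against 8 in WT, the rise was 32.9-fold, with an exact 95% interval of 16.4 to 76.9 for counting error only. In KO the RPKM of FOLR3 was far below the 385 RPKM of AP000812.2, and how the reads of either gene were spread over the sequence they share cannot be seen in gene totals.

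AP000812.3 (FOLR1P1), the other pseudogene of the cluster, ends 12.7 kb upstream of AP000812.2 and moved the opposite way. It had 28, 21 and 20 counts in WT and 4, 3 and 5 in KO, without overlap, and fell by 2.55 on the log2 scale (SE 0.37, adjusted p = 8.2e-09, edgeR). FOLR1, the gene for the folate receptor of epithelia, starts 11.6 kb downstream. It had 16, 14 and 15 counts in WT and 24, 25 and 26 in KO. The fitted change was 0.66 (SE 0.26, adjusted p = 0.028, edgeR), a call that was lost under 10 of 12 alternatives, each single library left out among them (adjusted p 0.0535 to 0.0684). AP000812.1 (FOLR1-AS1), an antisense RNA gene whose body overlaps AP000812.2 without sharing exon bases, had 8, 9 and 4 counts in WT and 16, 14 and 11 in KO (0.89, SE 0.37, adjusted p = 0.041, edgeR). That call was lost under 7 of 11 alternatives (adjusted p up to 0.210, without WT replicate 3), and without strand its intronic or unannotated reads cannot be told from those of its sense partners. FOLR2, the folate receptor gene of macrophages, had 1 count over the 6 non-directional libraries, in KO, and 1 over the 6 directional libraries, in WT.

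**Figure D4:**
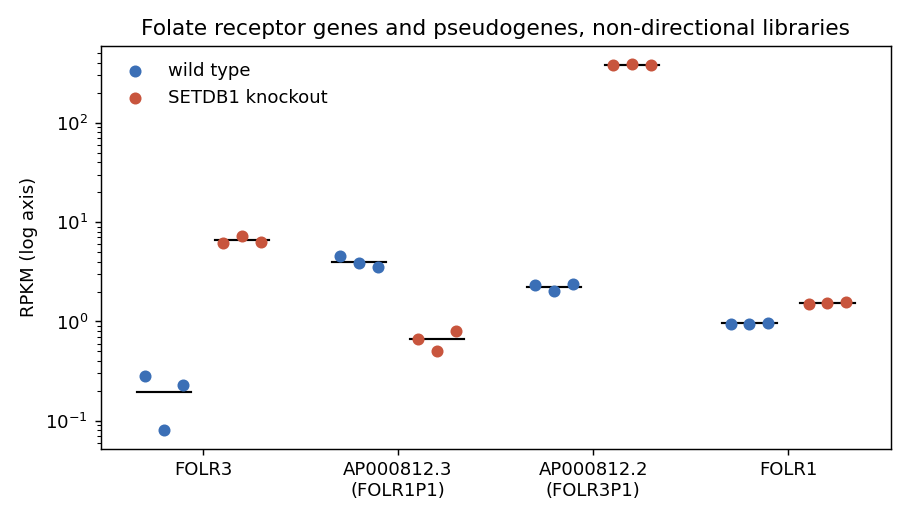
RPKM on a log axis of 4 folate receptor genes and pseudogenes in each non-directional library, in the order of the chromosome. Points are libraries (3 per genotype), black lines are means, FOLR2 with 1 read in all is not drawn, and AP000812.2 stands highest in KO while AP000812.3 alone is lower in KO than in WT.

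The remaining neighbours of AP000812.2 are not folate receptor genes. ANAPC15 (-0.07, adjusted p = 0.606, edgeR) of the anaphase-promoting complex, LRTOMT (-0.14, adjusted p = 0.644, edgeR) and INPPL1 (-0.02, adjusted p = 0.720, edgeR), a phosphoinositide phosphatase gene 45.7 kb downstream, were not called. LAMTOR1, a lysosomal adaptor of mTORC1 signalling, was lower by a small amount (-0.13, SE 0.044, adjusted p = 0.013, edgeR), as was CLPB, a mitochondrial disaggregase gene (-0.14, SE 0.042, adjusted p = 0.0033, edgeR). With the KO libraries summed, the adjusted p of LAMTOR1 was 0.102 and that of CLPB 0.0583. For LAMTOR1 it was 0.126 without KO replicate 2 and 0.0569 without WT replicate 2. PDE2A, a cyclic nucleotide phosphodiesterase gene 398.2 kb away, had 5, 8 and 14 counts in WT and 20, 15 and 20 in KO (0.95, SE 0.33, adjusted p = 0.013, edgeR), but 0.159 without WT replicate 1. ARAP1, a GTPase-activating protein gene, rose by 0.23 (SE 0.052, adjusted p = 1.1e-04, edgeR). Within 1000 kb of the pseudogene 23 genes were tested and 13 called, 7 higher and 6 lower, against a background of 51.5%.

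The directional libraries gave little on the neighbours, and their counts may be of either strand. None of the CPED1 neighbours passed the filter, and of those of AP000812.2, 3 were tested and 0 called by edgeR (0 also at an unadjusted p under 0.05, and 0 with DESeq2), against a background of 16.2%. The difference between kits in the KO effect was fitted for 18 of the 21 neighbours, and 1 was called, FOLR3 (background 1.82%). KCND2, LSM8 and FOLR1 had 0 counts in every directional library (SE 1202, 581 and 1041), so a difference could not be called. Other neighbours had few directional counts, so a missing call does not show that the kits gave the same effect. FOLR3 had 1, 2 and 2 directional counts in WT and 3, 1 and 2 in KO, and both groups were below the floor on average (2.78 and 3.40 CPM).

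L1 elements were measured apart from genes, as a signal per locus for 6437 long elements in the non-directional libraries. L1 (LINE-1) is the retrotransposon family that still moves in the human genome and a known target of SETDB1. No listed L1 locus lay inside CPED1 or AP000812.2. Within 500 kb each gene had 1 locus, and neither passed the filter. The one near CPED1, an L1PA6 81.8 kb upstream (chr7:120900748-120906862), had 4, 4 and 0 reads in WT and 2, 10 and 5 in KO, and the L1PA4 442.6 kb upstream of AP000812.2 (chr11:71723728-71729843) had 6, 4 and 8 and 7, 4 and 10. In both loci the genotypes overlapped. Of the 816 loci tested by limma across the genome, 28.4% were called. The nearest tested locus upstream of CPED1 was an L1HS at a distance of 7207 kb, with 4, 0 and 0 reads in WT and 16, 22 and 22 in KO (log2 fold change 3.36 on the log2(value + 1) scale, SE 0.75, adjusted p = 0.0026, limma). The nearest tested loci downstream of CPED1 (L1PA3, 2148 kb, adjusted p = 0.392, limma), upstream of AP000812.2 (L1PA5, 36393 kb, 0.623) and downstream of it (L1PA7, 883 kb, 0.456) were not called.

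The genes with profiles most like each of the pair were found by distance. The distance was Euclidean, between log2 CPM profiles (prior count of 2) centred on their own mean over the 6 non-directional libraries. It mainly reflects the size of the step between genotypes after the prior count is added, which shrinks the step of low genes. Nearest to CPED1 were ZNF735 (distance 0.343), ZNF257 (0.416) and ZNF354C (0.437), all zinc finger genes, with KO levels of 14.7, 107.4 and 12.04 CPM. Nearest to AP000812.2 were NLRP2 (0.657), an inflammasome-family gene of oocytes and early embryos at 2.08 CPM in WT and 374 in KO, CTCFL (0.799), the testis paralog of CTCF at 0.248 and 98.5 CPM, and AC010615.2 (0.967), a processed transcript at 18.1 CPM in KO. ZNF735, ZNF354C and AC010615.2 were at 0 in the 3 non-directional WT libraries, so their step depends on the prior count. Their fitted log2 fold changes were 10.15, 9.87 and 10.45, above those of CPED1 (6.18) and AP000812.2 (7.40). AP000812.2 was only 18th nearest to CPED1, and CPED1 6th nearest to AP000812.2, at a distance of 1.46.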

How the data were processed

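RNA of HAP1 cells was sequenced in 4 groups of 3 libraries (WT and SETDB1 KO in 2 kits). The authors deposited raw counts per gene, made per the labels with Trim Galore 0.4.4, STAR 2.6.0a and HTSeq 0.11.1 on hg38, and, for the 6 non-directional libraries, a signal per L1 locus. All L1 values (100%, within 0.01 reads) were whole multiples of 1 read, so reads were recovered. The strand setting and read length are not given in the sources used here. The publication in the header describes other samples, so only the data and labels were used.

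All 58735 gene IDs matched GENCODE 29. Each kit was filtered with filterByExpr (minimum count 10, minimum total 15), scaled by TMM and fitted with edgeR 4.0.16 (R 4.3.3, quasi-likelihood F-test, Benjamini-Hochberg, threshold 0.05). Kit differences were the genotype by kit term of a fit over 12 libraries. L1 loci were tested with limma 3.58.1 on log2(value + 1). Alternatives were DESeq2 1.42.0, other scaling, no filter, left-out libraries, a replicate block and KO libraries summed. The SE of an edgeR log2 fold change was its size divided by the square root of F. The code was tested on simulated data. Intervals and floors of 3 counts cover counting error only. Neighbours were the 5 nearest tested genes on each side plus overlapping genes. CPED1, AP000812.2, the gene lists and the tests were chosen with earlier results of these data known.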

Additional observations from a re-analysis of the deposited data

Results flagged for a closer look

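The KO effect on FOLR3 differed between the kits by the genotype by kit term of an edgeR fit over all 12 libraries: the log2 fold change in the directional libraries minus that in the non-directional ones was -4.52 (SE 1.15, adjusted p = 0.0073). The non-directional counts were 4, 1 and 3 in WT and 85, 99 and 90 in KO, and higher in 3 of 3 KO libraries, while the directional counts were 1, 2 and 2 in WT and 3, 1 and 2 in KO. The directional levels of 2.78 and 3.40 CPM were below the mean floor of 4.99 CPM, and the strand that the directional tables count is not given in the sources used here. What part the strand had in this difference was not tested. FOLR3 was not alone, since this term called 288 of 15832 genes (1.82%). Other genes named here were among them: ZNF354C (-9.38, adjusted p = 3.8e-08, edgeR), KRT8 (-0.58, adjusted p = 1.4e-06, edgeR) and SETDB1 (1.74, adjusted p = 0.010, edgeR).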

How the results depend on the processing

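The log2 fold changes of CPED1 and AP000812.2 stayed within 6.07 to 6.32 and 7.33 to 7.44 over all 13 settings, with 6.07 to 6.32 and 7.34 to 7.44 when single libraries were left out. The count of called neighbours of AP000812.2, 8 of 11, was 4 with the DESeq2 Wald test, 4 with the KO libraries summed (an alternative added after the data were seen), 5 in one fit over all 12 libraries and 5 to 7 without single libraries. For CPED1, 7 of 10, it was 5 with DESeq2, 6 in the fit over all 12 libraries, 7 with the KO libraries summed and 6 to 7 without single libraries. The fit over all 12 libraries did not test PTPRZ1 near CPED1, nor PDE2A and AP000812.1 near AP000812.2, so its counts are out of fewer genes. With the 3 nearest tested genes on each side, plus overlapping genes, the counts were 4 of 6 for CPED1 and 5 of 7 for AP000812.2. With the 10 nearest they were 11 of 20 and 10 of 21, beside a background of 51.5%. In the directional libraries the 10 nearest on each side of AP000812.2 gave 1 call in place of 0. The PC-esterase genes had 0 to 1 calls without single libraries, 1 without WT replicate 2, and the bone density region had 2 calls with DESeq2 and 3 to 4 without single libraries. All genes called numbered 7089 in the non-directional libraries (5359 with DESeq2, 6030 with KO summed, 6394 to 7134 without single libraries) and 769 in the directional ones (330 with DESeq2, 598 to 688 without single libraries). The fit over all 12 libraries split the non-directional calls into 2400 higher and 4170 lower, against 3517 and 3572. Of 31 single genes 9 changed their call in at least 1 alternative, none in direction. No L1 locus within 500 kb passed the filter, so the count of 0 there was fixed by the filter, and without it the adjusted p of the 2 loci was 0.694 (near CPED1) and 0.867 (near AP000812.2) by limma. The cause of these changes was not tested.

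Replicate numbers did not pair the samples: deviations of same-numbered WT and KO libraries correlated at 0.0026, 0.0043 and -0.0309 (non-directional) and -0.0293, 0.0033 and 0.0124 (directional). With a replicate block, 7074 non-directional and 712 directional genes were called, the neighbour counts stayed at 7 and 8, and the log2 fold changes at 6.18 and 7.40.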
